A study of Thermothelomyces thermophilus ATCC 42464 with 8 samples.

Results

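The mutant-only H3K9me3 peaks of strain ΔlaeA are the peaks of the ΔlaeA replicate 1 list that shared no base with any peak of either WT list. They were chosen by the overlap of peaks between these lists, and there were 264 of them among the 3054 peaks of that list (8.64%), and the 4 lists of the series together held 12393 peaks. The strains were Myceliophthora thermophila ATCC 42464, named WT here, and its laeA null mutant ΔlaeA, and no other allele is given for either. Mycelia of both were grown in Vogel's salts with 2% glucose at 45 °C for 24 h, and H3K9me3 chromatin was immunoprecipitated in 2 ChIP libraries per strain, each with 1 deposited peak list and 1 input library. The labels do not say whether the replicates came from separate cultures, so that a p-value measures only the spread between these libraries, and they name antibody ab8898 for WT and ab8902 for ΔlaeA, whereas the methods of the study name ab8898 alone. The strains therefore cannot be told apart from the antibodies as labelled. The series' design text names another histone mark, H3K79me3, and the lists are taken here as H3K9me3 lists, as the title and the sample labels have it.

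H3K9me3 is the trimethylated form of lysine 9 of histone H3 and the classical mark of heterochromatin. In the related fungus Neurospora crassa it covers AT-rich repeats, centromeres and the regions beside telomeres, where the protein HP1 binds it. LaeA is a nuclear protein with the fold of a methyltransferase, known in Aspergillus as a regulator of secondary metabolism and of development. The comparison asks whether the loss of LaeA goes with H3K9me3 at sites that carry no such peak in WT.

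Membership was fixed by overlap, so that the absence of a WT peak at a member is the rule and not a finding. The calling itself was not uniform. By their values, the replicate 1 lists were called at a p of 0.05 and the replicate 2 lists at a q of 0.05. WT replicate 1 held 5846 peaks and ΔlaeA replicate 1 held 3054, with median lengths of 301 and 261 bp. The 3329 peaks of WT replicate 2 measured 1536 bp at the median. Before entries were joined, the WT replicate 1 list held exactly 10000 of them, and whether this list is complete is not known. The ΔlaeA replicate 2 list as used here held 164 peaks and ended on chromosome 1 at position 3058073, within an entry whose q is missing, so that it could be set against the members on 7.89% of the bases of the 7 chromosomes. Of the ΔlaeA replicate 1 peaks, 1544 overlapped both WT lists, 948 overlapped WT replicate 2 alone and 298 overlapped WT replicate 1 alone. The number of mutant-only peaks depended on both WT lists. It was 562 when WT replicate 2 alone was used to exclude peaks and 1212 when WT replicate 1 alone was used. No read totals were used, so the depth is unknown, and the intervals given for shares of peaks are exact binomial 95% intervals that cover counting error only and treat the peaks as independent.

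The mutant-only peaks were short and weak. Their lengths ran from 147 to 904 bp with a median of 212 bp, and together they covered 64350 bp. The median length was 267 bp for the 2790 ΔlaeA replicate 1 peaks that overlapped a WT peak, called shared peaks here. The fold enrichment, which is the fragment pileup at the summit over the local background, had a median of 1.38 and a range of 1.19 to 2.09, against a median of 1.41 and a range of 1.24 to 2.14 for the shared peaks. The median −log10 p was 1.92 for the mutant-only and 2.098 for the shared peaks. A −log10 p of at least 2 was reached by 125 (47.3%) of the mutant-only and by 1561 (55.9%) of the shared peaks. The corrected value −log10 q was 0, that is a q of 1, at 231 (87.5%) of the mutant-only peaks and at 83.4% of the shared ones. Of the mutant-only peaks 1 had a q under 0.05, which is also rare in the list as a whole (0.131% of all ΔlaeA replicate 1 peaks, or 4 peaks). These are descriptions within 1 list and no test was made on them, since peaks of 1 library are not replicates.

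The peak with a q under 0.05 was also the strongest member. It lay on chromosome 5 from 3918023 to 3918199, where a pileup of 71.5 stood over a local background of 33.7. This made an enrichment of 2.09-fold, and the −log10 q was 2.17. It overlapped MYCTH_2066841 over 112 bp at one edge, a gene described as a serine/threonine protein kinase, a class of enzymes that transfer phosphate to other proteins. The nearest WT replicate 2 peak was 376 bp away, and this gene also carried a WT replicate 2 peak in its body. The next strongest members had fold enrichments of 1.79 on chromosome 6 from 141337 to 141717, 1.78 on chromosome 1 from 5029552 to 5029702, 1.75 on chromosome 1 from 8195899 to 8196188 and 1.73 on chromosome 6 from 4072325 to 4072586. None of these 4 reached a −log10 q above 0.563. The one on chromosome 1 from 5029552 overlapped MYCTH_2296805 over 149 bp, a gene with no WT peak in its body, and the one from 8195899 was 3 bp from a WT replicate 1 peak. The longest members measured 904 bp on chromosome 2 from 3367582, 825 bp on chromosome 4 from 189893, 651 bp on chromosome 1 from 6055239, 617 bp on chromosome 6 from 3727453 and 591 bp on chromosome 6 from 4062088. The longest of all lay almost wholly within MYCTH_2301722, which also had no WT peak in its body.

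Most mutant-only peaks lay just beside a WT peak. The distance from edge to edge to the nearest WT replicate 2 peak, where 1 bp means that the peaks touch, had a median of 341 bp with quartiles of 149.5 and 752.75 bp. It was at most 500 bp at 168 members (63.6%, interval 57.5 to 69.4%) and at most 1000 bp at 218 members (82.6%, interval 77.5 to 87.0%). Of the 25343959 bases outside all WT peaks, 8.08% lay within 500 bp and 12.7% within 1000 bp of a WT replicate 2 peak. The closest member, on chromosome 3 from 4135726 to 4136041, was 3 bp from a WT replicate 2 peak and reached 83 bp into MYCTH_111372, described as an endoglucanase, an enzyme that cuts cellulose chains internally. The median distance to the nearest WT replicate 1 peak was longer, at 709.5 bp. At the threshold of the rule itself, the member nearest to any WT peak was 2 bp from one of WT replicate 1 (chromosome 5 from 837901 to 838246), and the peak excluded by the smallest overlap shared 5 bp with WT replicate 2 (chromosome 5 from 193080 to 193512). In all, 67 members (25.4%) were within 100 bp of a peak of either WT list. When the WT peaks were widened by 500 bp on either side, 71 members were left, and 33 when they were widened by 1000 bp.

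**Figure D1:**
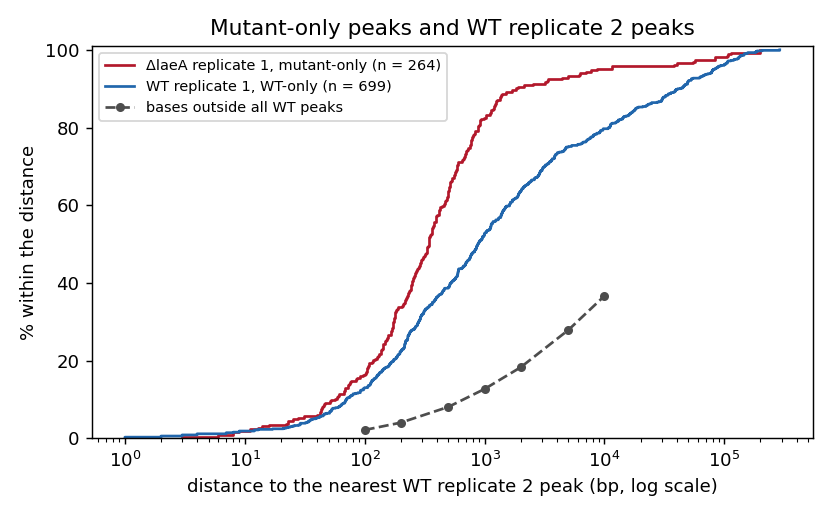
Share of peaks (y axis, percent) within a given distance of the nearest WT replicate 2 peak (x axis, bp, log scale), for the 264 mutant-only peaks (red line), for the 699 WT-only peaks of WT replicate 1 (blue line) and for the bases outside all WT peaks (grey points at 7 distances). The red line passes 82.6% at 1000 bp, where the blue line is at 52.6% and the bases are at 12.7%.

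To set these peaks beside a set from the other strain, the 699 peaks of WT replicate 1 that shared no base with WT replicate 2 or with ΔlaeA replicate 1 were taken, called WT-only peaks here. The 2 sets were not built alike. WT-only peaks had to be absent from the other library of their own strain and from 1 ΔlaeA list. Mutant-only peaks had to be absent from both lists of the other strain and were not filtered on ΔlaeA replicate 2. They were called at the same p and had been missed by the same WT replicate 2 list. Their median distance to the nearest WT replicate 2 peak was 880 bp, and 368 of them (52.6%, interval 48.9 to 56.4%) lay within 1000 bp of one. More than 10000 bp away lay 142 WT-only peaks (20.3%) but 13 mutant-only peaks (4.92%). The mutant-only peaks also filled narrower gaps. The median gap between the WT replicate 2 peaks on either side was 2207 bp around a mutant-only peak and 7702 bp around a WT-only peak, and 209 of 263 mutant-only peaks (79.5%) against 378 of 699 WT-only peaks (54.1%) lay in a gap of 10000 bp or less. The neighbouring WT replicate 2 peaks had a median length of 1411 bp against 1536 bp for that whole list. A nearest peak of 10000 bp or longer was found for 13 members (4.92%), while 310 of all WT replicate 2 peaks (9.31%) were that long. In all, 243 different WT replicate 2 peaks were the nearest neighbour of a member, and 19 of them had more than 1 member beside them. The 2 replicate 1 lists differ in strain, in antibody as labelled and in the number of peaks called, and the 2 sets differ in their rule. These cannot be told apart, which holds for each comparison with the WT-only peaks below.

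The 13 members farther than 10000 bp from any WT replicate 2 peak had fold enrichments between 1.19 and 1.49, and their −log10 q did not exceed 0.0231. The farthest pair lay on chromosome 2 from 1644285 to 1644741 and from 1645585 to 1645863, at 197360 and 198660 bp from WT replicate 2 and 227376 and 226254 bp from WT replicate 1 peaks. Another pair lay on chromosome 4 from 2128241 and from 2137033, at 105438 and 114230 bp. Not all 13 were far from WT replicate 1. The peaks on chromosome 1 from 6055239 and on chromosome 3 from 3546145 were 165 and 288 bp from one. Among the 13, 3 overlapped a gene body, namely MYCTH_97617, MYCTH_45669 and MYCTH_38152.

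A raised local background, a property that the rule had not used, was more frequent at the mutant-only than at the shared peaks. The background, computed back from the pileup and its enrichment, had a floor of 33.7 in the ΔlaeA replicate 1 list, and it is called raised here when it was more than 0.5% above that floor. It was raised at 172 mutant-only peaks (65.2%, interval 59.1 to 70.9%) and at 573 shared peaks (20.5%, interval 19.1 to 22.1%), against 24.4% of the whole list. The median pileup was higher at the mutant-only peaks (50.7 against 48.8) although their median fold enrichment was lower. Raised backgrounds were more frequent at mutant-only than at shared peaks in each range of strength. They were found at 69.1% against 22.4% of the peaks with a −log10 p under 2, at 58.9% against 17.2% between 2 and 3 and at 66.7% against 23.8% at 3 or more. Read the other way, 172 of the 745 peaks with a raised background were mutant-only (23.1%) but 92 of the 2309 peaks at the floor (3.98%). Of the 20 peaks with the highest background in the list, 14 were mutant-only. The highest backgrounds were 87.0 on chromosome 2 from 4725391 to 4725695, reaching 69 bp into MYCTH_45669, then 70.0 on chromosome 4 from 4306557 to 4306740, within MYCTH_2307660, and 68.0 on chromosome 4 from 1425791 to 1426084. At the first of these a pileup of 103 gave a fold enrichment of 1.19, the lowest of all members.

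The WT-only peaks had the same property, with a raised background at 505 of 699 (72.2%, interval 68.8 to 75.5%) against 23.7% of the other WT replicate 1 peaks. It was therefore not seen in ΔlaeA alone, and the highest background of a WT-only peak was 51.0 over a floor of 35.1. Its part in the calling of these peaks was not tested. The 92 mutant-only peaks at the floor lay closer to WT peaks, with a median distance to WT replicate 2 of 184 bp and 88 of them (95.7%) within 1000 bp. The corresponding values for the 172 with a raised background were 448 bp and 130 (75.6%), and 12 of the 13 members beyond 10000 bp were among these.

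**Figure D2:**
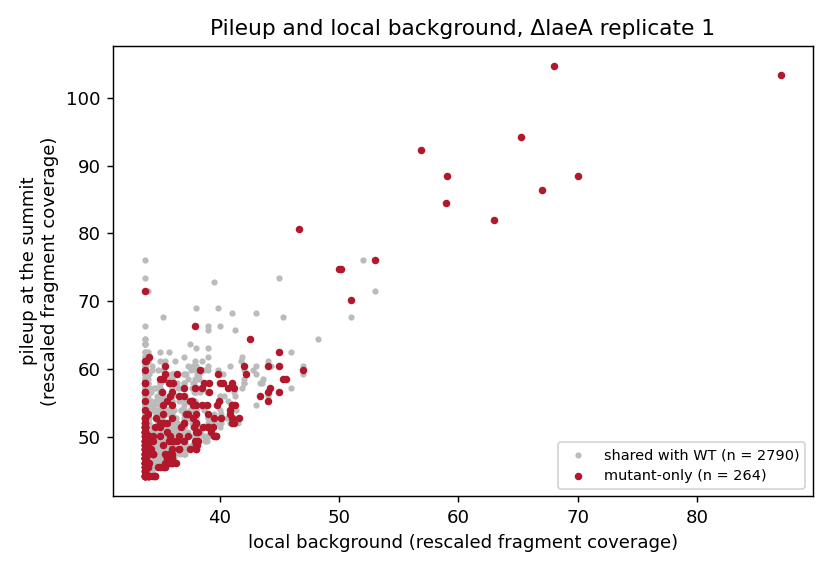
Pileup at the summit (y axis) against local background (x axis), both as rescaled fragment coverage, for each peak of the ΔlaeA replicate 1 list, with shared peaks in grey and mutant-only peaks in red. The column of points at 33.7 is the floor of the background, and 14 of the 20 points farthest to the right are mutant-only.

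All 7 chromosomes held mutant-only peaks, between 19 on chromosome 7 and 53 on chromosome 6. Their density, taken to the last annotated or called position, was 12.8 per Mb on chromosome 6 and 9.90 per Mb on chromosome 5, but 4.62 per Mb on chromosome 7 and fewer still on chromosome 1, where 47 members lay on 10930963 bp. The remaining chromosomes lay between 6.32 and 7.01 per Mb. As a share of the ΔlaeA replicate 1 peaks on the same chromosome, the members ran from 6.17% on chromosome 7 (interval 3.75 to 9.47%) to 12.8% on chromosome 2 (interval 9.14 to 17.2%). The interval of chromosome 2 lay above the 8.64% of the whole list, and those of the other 6 chromosomes included it. Within 50000 bp of a chromosome end lay 13 members (4.92%), against 8.14% of the shared and 2.29% of the WT-only peaks.

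**Figure D3:**
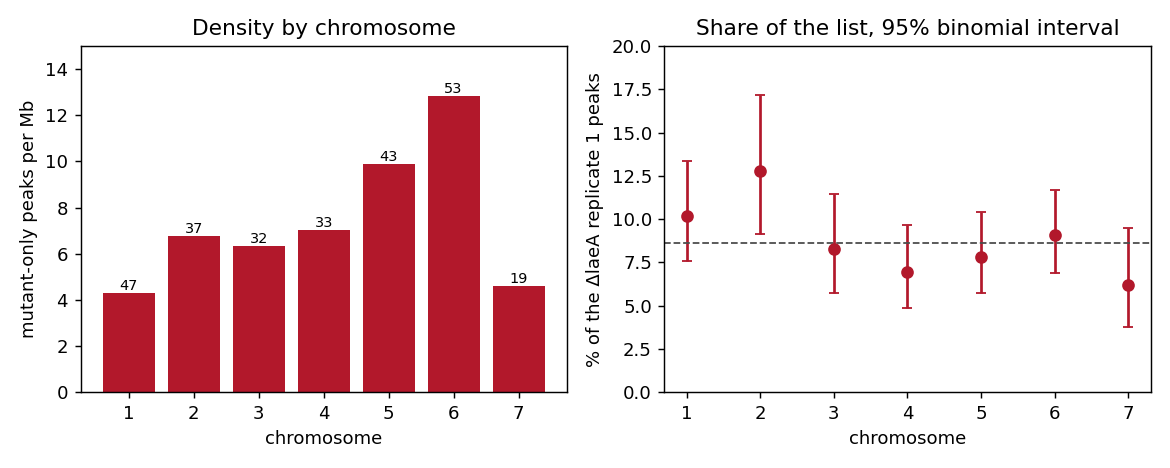
Left, mutant-only peaks per Mb on each of the 7 chromosomes, with their number above each bar. Right, their share of the ΔlaeA replicate 1 peaks of the same chromosome (points) with exact binomial 95% intervals (bars) and the share over the whole list (dashed line, 8.64%). Chromosome 6 has the highest density, and chromosome 2 the highest share.

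How many members lay in groups depended on the WT lists. With neighbours at most 10000 bp apart counted together, 90 members (34.1%) fell into 39 groups, of which 29 held 2 members, 8 held 3 and 2 held 4. The other 174 stood alone. The share in groups was 63.0% without WT replicate 1 and 72.5% without WT replicate 2, where the members were also more numerous. The WT-only peaks, which are more numerous, were grouped more often, with 372 of 699 (53.2%) in 149 groups of up to 6. The share of grouped members was 24.6% with a limit of 5000 bp and 43.6% with 20000 bp. One group of 4 spanned 7092 bp of chromosome 1 from 2627085 to 2634176, held no shared peak in between and had 2 WT replicate 2 peaks between its members, covering 2436 bp. Of these 4 peaks 3 lay in MYCTH_2313501, a gene model of 41976 bp and the longest in the annotation, which held 1 more member from 2662542 to 2662720. The second group of 4 ran on chromosome 6 from 4062088 to 4081645, with 7 WT replicate 2 peaks and 2 shared peaks in between. The members of both groups were within 3179 bp of a WT replicate 2 peak.

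The gene body was overlapped by 112 of the mutant-only peaks (42.4%, interval 36.4 to 48.6%), against 33.0% of all ΔlaeA replicate 1 peaks. The share was 32.1% for the shared and 62.8% for the WT-only peaks. The direction depended on WT replicate 2. Without that list the share among mutant-only peaks was 26.1%, below that of all peaks, and it was 34.5% without WT replicate 1. Of all bases outside the WT peaks, where every member lies, 59.7% lay in gene bodies. Of those within 1000 bp of a WT replicate 2 peak, 37.6% did. These are shares of bases, whereas a peak was counted with 1 bp in a gene, so they are not directly comparable with the shares of peaks. The difference from the shared peaks was mostly that of the weak peaks, with 49.6% against 30.9% at a −log10 p under 2. At 2 to 3 the values were 33.7% and 32.4%, and at 3 or more they were 36.7% and 34.8%. Of the 112 peaks, 54 lay wholly inside a gene and 58 crossed a gene boundary. A further 120 members were within 1000 bp of a gene without touching it, and 32 (12.1%) were farther away. That last class held 44.3% of the shared and 11.3% of the WT-only peaks. Fewer of the mutant-only peaks lay far from genes than of the shared ones, but the rule places members outside WT peaks and shared peaks on them. The share of bases outside WT peaks that lie this far from genes was not computed. Strand was not used here, so that the sides of genes were not separated.

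These peaks touched 107 of the 9097 protein-coding genes (1.18%, while 8.89% had any ΔlaeA replicate 1 peak). Of the 107 genes, 76 also carried a WT replicate 2 peak elsewhere in their body and 50 a WT replicate 1 peak, and 26 carried neither. A WT replicate 2 peak was found in 24.9% of all genes. Most genes touched by a mutant-only peak were thus genes that carried H3K9me3 peaks in WT as well. A description was at hand for 16 of the 107, from the part of the study's gene annotation used here, which describes 862 genes. Among the 26 genes without a WT peak, 4 were described. MYCTH_112136 encodes histone H2B, a core component of the nucleosome, and a member of 181 bp on chromosome 5 from 3258411 to 3258591 lay wholly inside it, and its enrichment was 1.32-fold over a background of 41.0. The nearest WT replicate 2 peak was 7715 bp away. MYCTH_110028 has a basic helix-loop-helix region, a domain found in DNA-binding proteins, and it was touched by 2 members, on chromosome 6 from 3355594 to 3355978 and from 3356581 to 3356929, with fold enrichments of 1.41 and 1.30 over raised backgrounds. MYCTH_2085453 is described as a rhamnose mutarotase, a sugar-converting enzyme, and had a member with a fold enrichment of 1.32 on chromosome 7 from 3892523. MYCTH_2019739 holds a domain of unknown function and had a member with a fold enrichment of 1.64 on chromosome 2 from 5189028. None of these 5 peaks had a −log10 q above 0.248.

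The other 12 described genes carried a WT peak as well and had varied descriptions. Besides the kinase gene MYCTH_2066841 and the endoglucanase gene MYCTH_111372 they were described as an alcohol dehydrogenase (MYCTH_2107104), a carboxypeptidase (MYCTH_111035), a tyrosinase-like protein (MYCTH_2063591), an acyl-CoA N-acyltransferase (MYCTH_117073), an AMP-dependent synthetase (MYCTH_2018746), a protein with a phosphopantetheine attachment site (MYCTH_108317), a pectin lyase-like protein (MYCTH_110806), an aldose 1-epimerase (MYCTH_103702) and sugar transporters (MYCTH_2057386 and MYCTH_108890). The members in the last 4 of these had fold enrichments of 1.30 (MYCTH_110806), 1.44 (MYCTH_103702), 1.45 (MYCTH_2057386) and 1.37 (MYCTH_108890), and the WT replicate 2 peak beside them was 171, 42, 57 and 165 bp away. Of the 862 described genes 16 were touched in all, and of the 38 with a transporter or permease in their description 2 were. None was touched of the 19 described as glycoside hydrolases, 14 as cytochrome P450, 9 as transposon or reverse transcriptase genes, 7 as transcription factors and 2 as terpene genes, and no gene described as a polyketide synthase or nonribosomal peptide synthetase was in that part. These counts rest on the words of the descriptions and not on gene function. The touched genes MYCTH_111372 (endoglucanase), MYCTH_110028 (basic helix-loop-helix) and MYCTH_108317 (phosphopantetheine attachment site) were therefore not counted in any of these classes. These lists are small beside the 107 genes touched of 9097, and no test was made.

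Of 32 genes that the study names by number, 1 was touched (3.1%, against 1.18% of all genes) and 1 more had a member within 1000 bp. Both encode amino acid permeases, which take amino acids up into the cell. The share with a member within 1000 bp was not computed over all genes. MYCTH_2299723 was touched over 20 bp by a member on chromosome 1 from 10319527 to 10319691 that was enriched 1.29-fold, and also held peaks of both WT lists. MYCTH_2308145 lay 898 bp from a member on chromosome 5 from 1065248 to 1065435 and held a WT replicate 2 peak. The deleted gene laeA (MYCTH_2294559) was 157041 bp from the nearest member, which was also the nearest peak of the ΔlaeA replicate 1 list, and peak lists cannot show the deletion itself. The nearest member was 87308 bp away from cre-1, which encodes a repressor of genes for less preferred carbon sources, and 26321, 31745 and 115339 bp away from grf-3, grf-2 and grf-1, named by the study as growth regulatory factors. It was 84479 bp away from fbp and 150439 bp away from pck, which encode enzymes of gluconeogenesis. After the permease genes, the named genes nearest to a member were hac-1, at 7841 bp, and the phosphoglycerate kinase gene, at 17378 bp. With 6.81 members per Mb over all chromosomes, these distances are given as a description and not as a result about these genes.

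The other ΔlaeA library was the only ΔlaeA replicate the rule had not used. On chromosome 1 up to 3058073, where it could be read, 0 of 16 mutant-only peaks overlapped a ΔlaeA replicate 2 peak (exact interval 0 to 20.6%). Over the same stretch 98 of 134 ΔlaeA replicate 1 peaks did so (73.1%), all of them among the 118 shared peaks (83.1%, interval 75.04 to 89.3%). Among shared peaks no stronger than the median member the count was 33 of 41 (80.5%). Of the WT-only peaks there, 1 of 57 overlapped a ΔlaeA replicate 2 peak (1.75%, interval 0.0444 to 9.39%).

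Few bases of the ΔlaeA replicate 2 peaks lay outside the WT peaks, where such an overlap could occur. ΔlaeA replicate 2 peaks covered 754521 bp of this stretch, and 13387 bp of that (1.77%) lay outside all WT peaks. These are 0.602% of the bases outside WT peaks, where every member lies, while 24.7% of all bases of the stretch were in a ΔlaeA replicate 2 peak. Among the 11 ΔlaeA replicate 1 peaks that overlapped WT replicate 1 but not WT replicate 2, 1 was found in ΔlaeA replicate 2. Among the 43 that overlapped WT replicate 2 but not WT replicate 1 there were 41 (95.3%). Leaving WT replicate 2 out of the exclusion adds these 43 peaks to the 16 members, and 41 of the 59 (69.5%) then overlapped ΔlaeA replicate 2. This restates the same 41 peaks, and the 16 members still had no overlap. The share with an overlap thus depended on whether peaks that overlap WT replicate 2 were excluded.

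**Figure D4:**
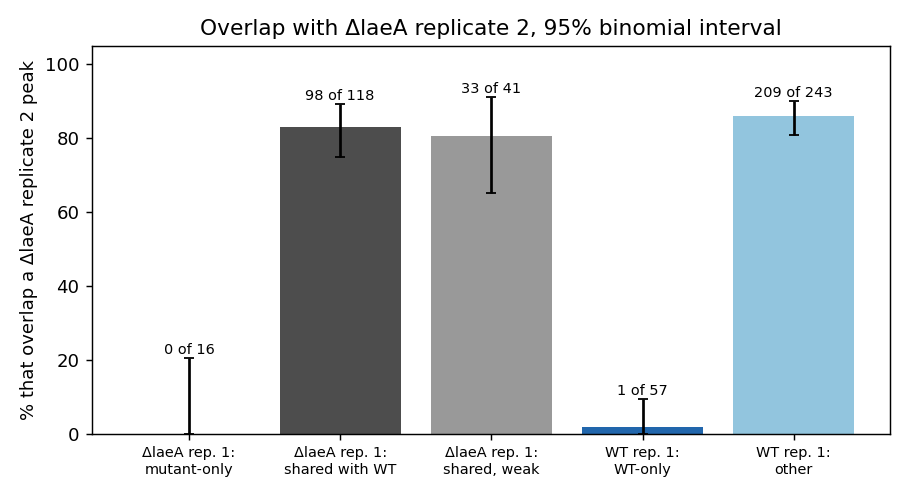
Share of peaks that overlap a ΔlaeA replicate 2 peak (y axis, percent) on chromosome 1 up to position 3058073, with exact binomial 95% intervals (error bars) and counts above them, for 3 sets of ΔlaeA replicate 1 peaks and 2 sets of WT replicate 1 peaks. The weak shared peaks are those no stronger than the median mutant-only peak. Sets that WT replicate 2 lacks (0 of 16 and 1 of 57) are near 0.

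The 16 members of this stretch lay near the replicate 2 peaks of both strains without touching them. Their median distance was 427 bp to a WT replicate 2 peak, 590 bp to a ΔlaeA replicate 2 peak and 1294.5 bp to a WT replicate 1 peak. A ΔlaeA replicate 2 peak was within 500 bp of 7 of them and within 1000 bp of 11, while a WT replicate 2 peak was within 1000 bp of 14. The WT replicate 2 peak was the nearer of the replicate 2 peaks at 13 of the 16. The first member of the chromosome, from 129 to 316, was 59 bp from ΔlaeA replicate 2 and 77 bp from WT replicate 2, and the member from 2699585 to 2699778 was 108 and 72 bp from them. The member from 791244 to 791466 stood apart from the others. It lay in MYCTH_2122073, a gene with no WT peak, at 25233 bp from ΔlaeA replicate 2, 8708 bp from WT replicate 2 and 70770 bp from WT replicate 1, with a fold enrichment of 1.501 over a raised background of 42.6. The strongest of the 16, from 2758104 to 2758250, had a pileup of 92.3, a background of 56.9, an enrichment of 1.61-fold and 0.626 as its −log10 q, and was 763 bp from ΔlaeA replicate 2.

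**Figure D5:**
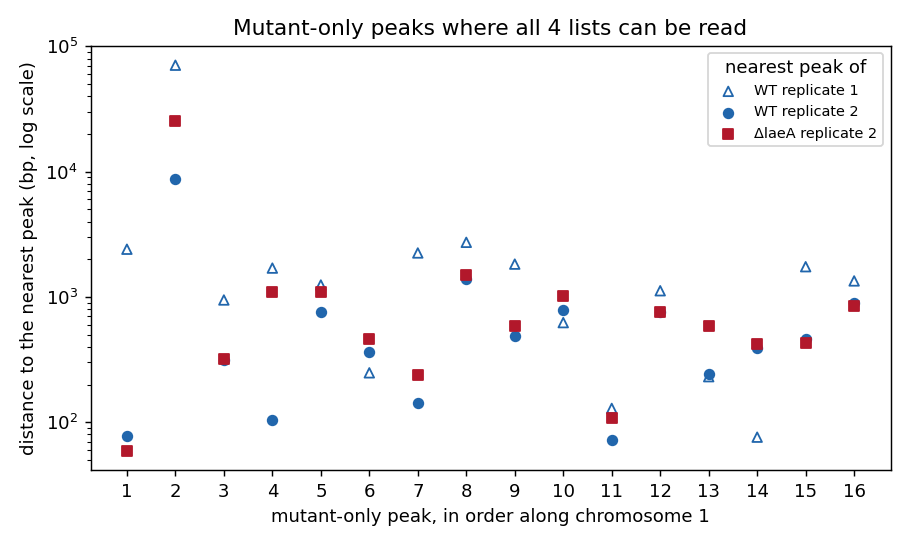
Distance (y axis, bp, log scale) from each of the 16 mutant-only peaks of the stretch, numbered in order along chromosome 1 (x axis), to the nearest peak of WT replicate 1 (open triangles), WT replicate 2 (blue circles) and ΔlaeA replicate 2 (red squares). The red squares lie between 59 and 25233 bp, and 11 of them are under 1000 bp.

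In the reverse direction, ΔlaeA replicate 2 held 1 peak of 164 (0.610%) that shared no base with either WT list. It spanned positions 2080092 to 2080415 of chromosome 1, was enriched 1.59-fold against a list median of 2.02, lay 1491 bp from a WT replicate 2 peak and 292009 bp from the nearest ΔlaeA replicate 1 peak, and overlapped no gene. The mutant-only peaks of the 2 ΔlaeA libraries had thus no site in common on this stretch. The share of peaks without a match in either library of the other strain was 11.9% in ΔlaeA replicate 1 and 0.610% in ΔlaeA replicate 2, and 25% in WT replicate 1 and 14.5% in WT replicate 2. The strain means were 6.28% in ΔlaeA and 19.8% in WT. The value of ΔlaeA replicate 1 is the share of its mutant-only peaks, so these shares are given as a description, and 2 against 2 libraries allow no two-sided permutation p under 0.333. The difference turned round without WT replicate 2, when the ΔlaeA mean was 20.8 percentage points higher. Of the WT peaks without a match in ΔlaeA, 19 of 75 in WT replicate 1 and 7 of 29 in WT replicate 2 overlapped a peak of the other WT replicate. In ΔlaeA the counts were 0 of 16 and 0 of 1. Few bases of the ΔlaeA replicate 2 peaks lay outside the WT peaks, and no comparison of the strains was made on these counts.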

How the data were processed

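ChIP-seq for H3K9me3 gave 2 libraries per strain; inputs served the authors as peak-calling controls only. Per the authors' methods, reads were trimmed and aligned in pairs (Bowtie2), those with a unique position were retained, and MACS2 called each library separately. The genome build is not given in the sources used here. The deposited pileup is a signal, the fragment coverage at the summit, and was rescaled in the replicate 1 lists. Fold enrichment, as deposited, divides pileup by local background after adding 1 to both. MACS2 also gave the authors' −log10 p-value and −log10 q-value columns, whose names were lost in the lists. The submitters' notes list Trimmomatic 0.36, Bowtie2 2.3.4.3, MACS2 2.1.2 and ChIPseeker 2.16.0. The methods of the study instead name Trim Galore for trimming and other versions of Bowtie2 and MACS2. Which of these made the lists is not known.

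Entries of equal chromosome, start and end were joined, with the highest of each score. The local background was computed from pileup and fold enrichment at the entry of highest −log10 p. Gene bodies came from RefSeq (ASM22609v1), with 9097 protein-coding genes. Edges of WT replicate 2 peaks lay within 100 bp of a gene boundary at 11.1% without a shift and at 7.90 to 10.8% at shifts of up to 2000 bp. Overlap needs 1 bp. The regions given singly are the 5 members of highest fold enrichment, the 5 longest, those of the largest groups, any with a q under 0.05, any found in ΔlaeA replicate 2, and those nearest to and farthest from WT peaks. The genes are those that these members overlap and those of the study within 1000 bp of a member. Members beyond 10000 bp from WT replicate 2, those of highest background, the other members of chromosome 1 and the described genes were added after their values were seen. The members and lists were chosen with earlier results of these data known. Alternatives were each list left out, the replicate block, wider WT peaks, other overlaps and stricter scores. The code was tested on simulated peaks. The scripts ran in Python 3.11.15 with matplotlib 3.10.9, scipy 1.17.1, pandas 2.3.3 and numpy 2.4.6.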

Additional observations from a re-analysis of the deposited data

How the results depend on the processing

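Of 68 values recomputed under alternatives for 6 results, 26 were counted as unchanged, 41 as moved and 1 as reversed. Unchanged means within the interval or within 1.5 times the value given. For the strain difference in peaks without a match it means only the same sign, whatever the size. The cause was not tested, except that each alternative changes the peaks that enter.

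The number of mutant-only peaks was 1 to 1212 with 1 library left out (562 without WT replicate 1, 1212 without WT replicate 2, 1 in ΔlaeA replicate 2 on the covered part of chromosome 1). With the replicate block, 1212 were found within replicate 1 and 3 within replicate 2. It was 71 and 33 with WT peaks widened by 500 and 1000 bp, 443 when WT overlaps under 50% of the shorter peak were allowed, 125 at a −log10 p of at least 2 and 92 at the lowest local background, an alternative added after the data were examined. 

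In what follows, the values without ΔlaeA replicate 1 (0% and 1491 bp) rest on 1 peak. Those of the replicate block within replicate 2 rest on 3 peaks, so neither is a share of a larger set. The share in gene bodies was 0 to 34.5% with 1 library left out, at 26.1% without WT replicate 2 below the 33.0% of the whole list, 26.1% and 0% with the replicate block within replicates 1 and 2, 33.8% with WT peaks widened by 500 bp and 34.4% at a −log10 p of at least 2. The median distance to WT replicate 2 was 0 to 1491 bp with 1 library left out, 0 and 1491 bp with the replicate block, 1192 and 4986 bp with WT peaks widened by 500 and 1000 bp, 173 bp with small WT overlaps allowed and 184 bp at the lowest background. The share in groups was 0 to 72.5% with 1 library left out, 72.5% and 0% with the replicate block, 16.9% and 12.1% with wider WT peaks, 49.2% with small WT overlaps allowed, 17.6% at a −log10 p of at least 2, 47.7% with entries not joined, 17.4% at the lowest background, and 24.6% and 43.6% with limits of 5000 and 20000 bp.

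Overlap with ΔlaeA replicate 2 was 3.70 to 69.5% with 1 WT list left out, 69.5% with the replicate block within replicate 1, and 43.8% (7 of 16) with ΔlaeA replicate 2 peaks widened by 500 bp. The strain difference in peaks without a match, −13.5 percentage points, was −61.6 to 20.8 with 1 library left out and reversed without WT replicate 2 (20.8). With the replicate block it was −32.0 within replicate 1 and −14.2 within replicate 2. Nothing in the labels ties libraries of the same number together. The unknown depth, the different cut-offs and the end of the ΔlaeA replicate 2 list limit each of these values.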

Other observations

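Transfer RNA genes, which are short and strongly transcribed by RNA polymerase III, were looked at after the data had been seen. The annotation has 192 of them, with 0.0432% of the bases of the 7 chromosomes. A tRNA gene was overlapped by 6 of the 264 mutant-only peaks (2.27%, exact interval 0.839 to 4.88%), by 5 of the 2790 shared peaks (0.179%, interval 0.0582 to 0.418%) and by 1 of the 699 WT-only peaks (0.143%, interval 0.00362 to 0.794%). All 6 had a raised local background, between 46.6 and 68.0, where the floor of the list was 33.7. On chromosome 1 they were MYCTH_t3, with a pileup of 92.3 and a fold enrichment of 1.61, and MYCTH_t35, with 70.2 and 1.37. On chromosome 4 they were MYCTH_t108, with 104.68 and 1.53, and MYCTH_t113, with 76.1 and 1.43. On chromosome 5 it was MYCTH_t150, with 74.8 and 1.48, and on chromosome 7 MYCTH_t187, with 80.6 and 1.44. The pileup and the background at MYCTH_t187 come from different joined entries. The summit of the entry that gave the background, at 3853448, lay outside this tRNA gene (3853530 to 3853601). The nearest WT replicate 2 peak was between 286 and 105438 bp away. Of the 3329 WT replicate 2 peaks 2 overlapped a tRNA gene, and shared peaks overlap WT peaks by the rule. MYCTH_t3 lies on the stretch that ΔlaeA replicate 2 covers, and that list had no peak there. The part of the raised background in these calls was not tested.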
